A study of Mus musculus with 8 samples.

Results

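H3K27me3, the trimethylated form of lysine 27 on histone H3, is the mark that Polycomb repressive complex 2 writes on chromatin. It often covers long stretches around silent developmental genes, and Jmjd3 (Kdm6b), an enzyme that macrophages induce when they meet bacterial products, can remove it. H3K4me3 marks promoters, and where both marks overlap a promoter is called bivalent.

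The data described here are the autosomal H3K27me3 positions of mouse bone marrow-derived macrophages before and 4 h after an inflammatory stimulus, counted in fixed bins of 100 kb from position 1 of each chromosome (mm8, as are all coordinates). The cells were primary macrophages from female Fvb mice aged 6 to 8 weeks. They were untreated (0 h) or had been given LPS, a component of bacterial outer membranes, together with the cytokine IFNγ for 4 h, at doses not given in the sources used here. No label says whether a library pools animals. The series mapped H3K27me3, H3K4me3, RNA polymerase II (Pol II) and Jmjd3 by chromatin immunoprecipitation and sequencing, with 1 library per antibody and time, 8 in all. Each H3K27me3 list gives single positions with an overlap count (the number of overlapping tags at its peak), so the lists hold no widths, and a domain is described here as a bin or a run of bins with many positions. The autosomes held 57157 positions at 0 h and 83879 at 4 h, together 141036 of the 364537 features listed in the series. With 1 library per time there was no replicate check and no test between the times. The ranges in brackets are 95% intervals, Wald ones for differences in percentage points and exact binomial ones for shares and ratios. They cover counting error only, since neighbouring positions are not independent.

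The lists differed in length and in their lower end. The summed overlap count was 973098 at 0 h and 1557701 at 4 h, the median was 12 at 0 h and 13 at 4 h, and the lowest count was 9 at 0 h and 10 at 4 h. Counts of 9 to 11 made up 48.9% of the 0 h list and 34.2% of the 4 h list. The labels put every library above 10000000 uniquely mapped tags, and the exact depth was unknown. Each bin is therefore given as a share of its own list. Most results that changed with the length of the lists are given a second time. For these the 4 h list was limited to its 55233 positions of count 12 or more, called lists of equal length here.

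The map of H3K27me3 along the autosomes was largely the same at both times. Of 24612 bins, 8436 (34.3%) held a position at 0 h and 9086 (36.9%) at 4 h, 7554 held one at both times, and 14644 (59.5%) held none at either. Bins listed at 0 h alone numbered 882 and carried 944 positions, or 1.65% of the 0 h list. Bins listed at 4 h alone numbered 1532 and carried 2433 positions, or 2.90% of the 4 h list. These bins were sparse: none listed at 0 h alone held more than 3 positions, and the fullest listed at 4 h alone held 12. Across the 9968 bins with a position at either time, the counts of the 2 libraries had a Pearson r of 0.958 and a Spearman rho of 0.843. This is a description across bins, which share mappability and base composition and are not independent.

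The mark was concentrated. The densest 1% of bins at each time, 246 bins, held 19.7% of the 0 h positions and 16.7% of the 4 h positions, or 20.8% of the 4 h positions in lists of equal length. The fullest bin held 79 positions at 0 h and 90 at 4 h. Positions within a list were never closer than 503 bp at either time, and 18.7% of neighbouring positions at 0 h and 20.7% at 4 h were less than 1 kb apart.

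The bins with the highest mean share were H3K27me3-dense at both times. The bin chr15:7100001-7200000 held 79 positions at 0 h and 90 at 4 h, a ratio of shares (4 h over 0 h) of 0.776 (0.567 to 1.06). Its tallest position had a count of 33 at 0 h and 43 at 4 h, so its density came from many moderate positions. The bin chr7:144000001-144100000 followed with 74 and 90 positions, and chr15:102800001-102900000 with 78 and 82. The next were chr11:61100001-61200000 with 75 and 76 positions and chr5:122200001-122300000 with 73 and 78. The share was lower at 4 h in each of these 5 bins, with ratios from 0.691 to 0.829, while the median overlap count per position was higher at 4 h in each, for example 20 and 26.5 in the chr15:102800001-102900000 bin. The 5 ratios in lists of equal length lay between 0.992 and 1.17. Pol II was listed in none of the 5 bins at 0 or 2 h and as 1 position at 4 h in the chromosome 5 bin, which also held the only Jmjd3 position among them.

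Dense bins lay side by side. When the occupied bins were ordered by the mean of both shares and divided into 10 classes of equal size, the densest class comprised 996 bins in 621 separate stretches. Of these stretches 396 were 1 bin long, 136 were 2 bins and 89 were 3 or more. The longest covered 9 bins, chr11:95700001-96600000, with 259 positions at 0 h and 382 at 4 h, 0.453% and 0.455% of their lists (ratio 1.01, 0.856 to 1.18). Single bins within it had ratios from 0.696 to 2.04, so the total hid unequal parts. Stretches of 6 bins were chr5:35300001-35900000 (194 and 248 positions), chr6:84000001-84600000 (184 and 257), chr7:143700001-144300000 (314 and 382) and chr8:123700001-124300000 (233 and 322). Their ratios were 0.871 (0.719 to 1.06), 0.952 (0.785 to 1.16), 0.829 (0.712 to 0.966) and 0.942 (0.793 to 1.12). In lists of equal length these ratios lay between 0.928 and 1.06. The chromosome 7 stretch, whose interval alone excluded 1 in the full lists, had a ratio of 0.995 there. All 6 bins of the chromosome 6 stretch, and 5 of the 6 of the chromosome 7 stretch, held no Pol II position at 0 or 4 h. Of all 996 dense bins, 445 (44.7%) held no Pol II and 192 (19.3%) no H3K4me3. In classes 6 to 9 of the same order, 42.2% of bins held no Pol II and 26.2% no H3K4me3. Among all 24612 bins, occupied or not, 15563 held no Pol II and 14732 no H3K4me3.

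In the full lists, the densest bins held a smaller share at 4 h and the bins of middling density a larger one. The densest class held 49.5% (49.1 to 49.9) of the 0 h positions and 45.3% (45.0 to 45.7) of the 4 h positions, which was -4.21 points from 0 h to 4 h (Wald, -4.74 to -3.68). Classes 6 to 9 held 42.6% and 46.5%, 3.84 points more at 4 h (3.32 to 4.37). The sparser 5 classes held 7.83% and 8.20%, 0.37 points more (0.08 to 0.66). By summed overlap count the densest class held 48.8% at 0 h and 47.1% at 4 h. The mean overlap count per position in these bins was 16.8 at 0 h and 19.3 at 4 h, against 18.4 at both times in class 6. It was 17.3 and 18.1 in class 8, and 16.8 and 18.0 in class 9. With both lists beginning at a count of 10, the means were 18.6 and 19.6 in the densest class and 20.9 and 17.7 in class 6.

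This direction turned with the length of the lists. In lists of equal length the densest class held 47.1% (46.7 to 47.5) at 0 h and 48.9% (48.5 to 49.4) at 4 h, 1.87 points more (Wald, 1.29 to 2.46). The sparser 5 classes differed by -2.35 points (-2.68 to -2.03), and classes 6 to 9 by 0.48 points (-0.10 to 1.06). With classes kept from the full lists, the densest class held 49.5% at 0 h and 51.2% of the shortened 4 h list. With both lists beginning at a count of 10, the difference for the densest class was -7.53 points (-8.10 to -6.96). With each list limited to positions above its own median, it was -2.64 points (-3.44 to -1.84). The share of the densest class was thus lower at 4 h in these forms of the lists and higher where the 4 h list was cut to the length of the 0 h list.

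**Figure D1:**
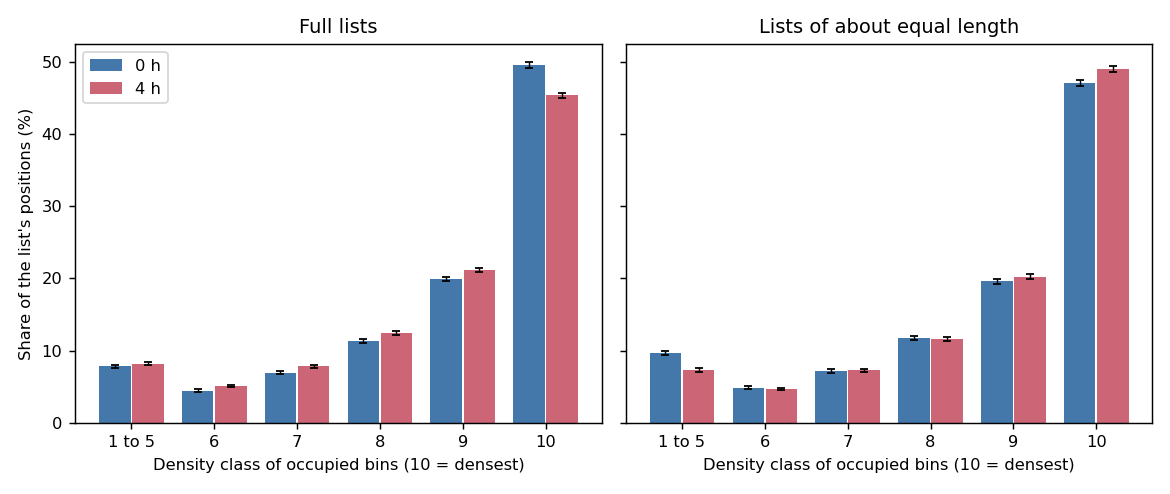
Share of each list's positions (percent, bars with exact 95% intervals) in classes of bins ordered by density, at 0 h and 4 h, for the full lists (left) and lists of equal length (right). The densest class holds 49.5% at 0 h and 45.3% at 4 h in the full lists, and 47.1% and 48.9% in lists of equal length.

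H3K4me3 content, which played no part in choosing the bins, separated them in the same way. The 14732 bins without an H3K4me3 cluster at either time held 21.5% (21.1 to 21.8) of the 0 h positions and 24.6% (24.3 to 24.9) of the 4 h positions, 3.12 points more (Wald, 2.68 to 3.57). The 3238 bins with 3 or more clusters held 33.4% and 29.8%, a difference of -3.63 points (-4.13 to -3.14). The 6642 bins with 1 to 2 clusters held 45.1% and 45.6%, a difference whose interval included 0 (0.51 points, -0.02 to 1.04). Positions in bins with 3 or more clusters were taller, with a mean overlap count of 19.5 at 0 h and 22.1 at 4 h, than those in bins without H3K4me3, at 13.7 and 14.8. At equal length the differences were -1.17 points (-1.64 to -0.69) without H3K4me3 and 0.68 points (0.12 to 1.23) with 3 or more clusters, the opposite direction to the full lists.

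The differences by Pol II and Jmjd3 were smaller in points. Points depend on how much of the list a class holds, so they do not rank the marks. Bins with 10 or more Pol II positions held 13.6% at 0 h and 12.3% at 4 h (-1.34 points, -1.70 to -0.99). In lists of equal length their difference was -0.15 points (-0.55 to 0.25). Bins without Pol II at 0 or 4 h held 43.4% of the 0 h positions and 45.8% of the 4 h positions, 2.43 points more (1.90 to 2.96), and 0.14 points more (-0.44 to 0.72) in lists of equal length. The 0 h list of Pol II ended early on some chromosomes, so beyond those points a bin was classed by its 4 h list alone. Bins with a single Jmjd3 position held 12.3% at 0 h and 11.6% at 4 h (-0.74 points, -1.08 to -0.39). Those with 2 or more held 4.97% and 4.44% (-0.53 points, -0.76 to -0.31). At equal length the corresponding differences were 0.29 points (-0.09 to 0.68) and -0.03 points (-0.28 to 0.23), so no shift away from Jmjd3-bound bins was detectable there.

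**Figure D2:**
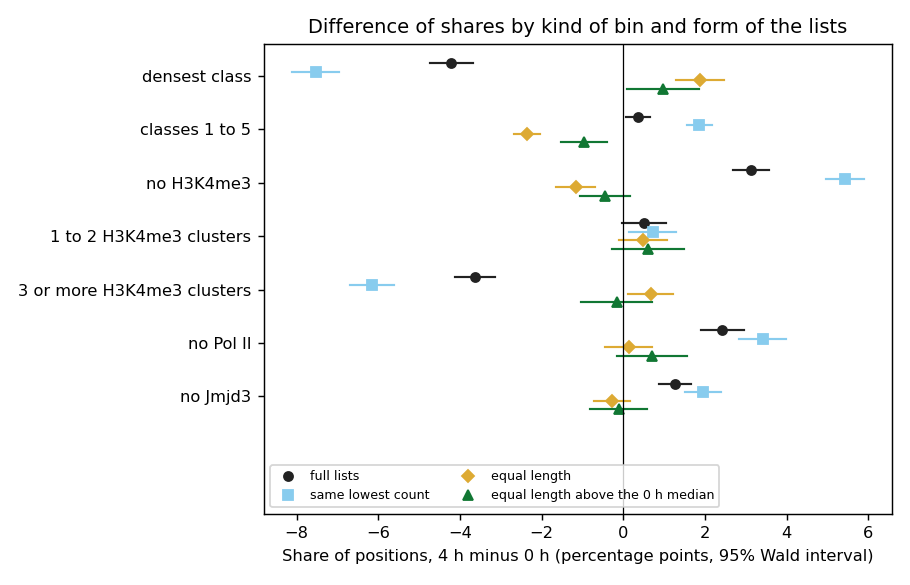
Difference of shares, 4 h minus 0 h, in percentage points with 95% Wald intervals (x axis), for kinds of bins (y axis) under 4 forms of the lists. For the densest class the full lists give -4.21 points and lists of equal length 1.87; for bins without H3K4me3 they give 3.12 and -1.17.

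Single bins were compared where the 2 lists together held at least 20 positions. This left 2186 bins (8.88% of all), which held 72.0% of the 0 h positions and 69.5% of the 4 h positions. The median ratio of shares was 0.973, the quartiles were 0.829 and 1.19, and 1869 bins (85.5%) had a ratio within 1.5-fold. A bin was called past a 2-fold ratio, with no test. By positions, 70 bins (3.20% of those compared) were at least 2-fold higher at 4 h and 1 (0.0457%) at least 2-fold lower. By summed overlap count, 63 (2.88%) were higher and 2 (0.0915%) lower, and 49 bins were higher by both measures. Of the 70, the interval of the ratio lay above 1 in 20. With lists of equal length, 1697 bins were compared, of which 8 (0.471%) were higher and 10 (0.589%) lower. Only 12 of the 70 still held 20 positions there and 5 were still called.

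**Figure D3:**
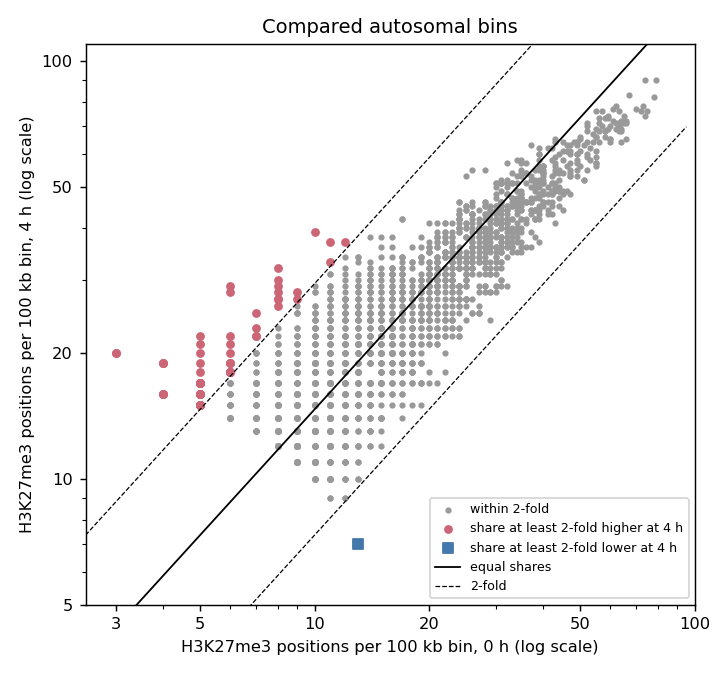
Number of H3K27me3 positions at 0 h (x axis) and 4 h (y axis), both on log scales, in each of the 2186 compared bins. Dashed lines mark a 2-fold ratio of shares around equal shares (solid); the 70 higher bins hold 3 to 12 positions at 0 h, and 1 bin lies below the lower line.

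The 70 higher bins were sparse at 0 h, and 36 of them lacked H3K4me3. The call itself largely sets this sparseness, since a 2-fold higher share leaves few 0 h positions in bins of these totals. The 70 bins held 3 to 12 positions at 0 h (median 5) and 15 to 39 at 4 h (median 18), and lay on 18 of the 19 autosomes. The share without H3K4me3 was 51.4% (39.2 to 63.6), against 464 of all 2186 compared bins (21.2%, 19.5 to 23.0). Among 698 other compared bins with 20 to 29 positions it was 20.3% (17.4 to 23.5). Pol II was absent from 41 of the 70 (58.6%, 46.2 to 70.2) and from 37.5% (33.9 to 41.2) of those 698. Jmjd3 was listed in 4 of the 70 (5.71%, 1.58 to 13.99) and in 19.1% (16.2 to 22.2) of the 698. Their positions were low: the tallest position per bin had a median count of 15 at 0 h and 22 at 4 h, against 41 and 52 in the 698. At equal length 4 of the 8 higher bins (15.7% to 84.3%) and 5 of the 10 lower bins (18.7% to 81.3%) held no H3K4me3, too few bins to compare. Jmjd3 was listed in 0 of each, with intervals up to 36.9% and 30.8%. Among all 1697 bins compared at equal length, 313 (18.4%) held no H3K4me3 and 276 (16.3%) held Jmjd3. Position height differed between the 70 and the 698 bins, and its part in these contrasts was not tested.

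The largest ratios rested on few 0 h positions. The bin chr7:81200001-81300000 held 3 positions at 0 h and 20 at 4 h (ratio 4.54, 1.35 to 23.9), with 3 H3K4me3 clusters at each time. The bin chr15:85600001-85700000 also held 3 and 20, but its summed overlap count was 102 and 304, a ratio of 1.86. A single position with a count of 83 made up most of its 0 h sum, and its tallest position at 4 h had a count of 89. The bin chr5:32500001-32600000 held 6 and 29 positions (ratio 3.29, 1.34 to 9.70) and no H3K4me3, Pol II or Jmjd3. The bins chr2:73700001-73800000 and chr2:131300001-131400000 held 4 and 19 positions each (ratio 3.24, 1.08 to 13.1). The interval of the ratio in lists of equal length included 1 for each of these bins except that at chr7:81200001-81300000 (4.14, 1.12 to 22.9).

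The largest gains in percentage points came from bins with no H3K4me3, Pol II or Jmjd3 listed. The first, chr4:138000001-138100000, held 10 positions at 0 h and 39 at 4 h, or 0.0175% and 0.0465% of the lists (ratio 2.66, 1.30 to 5.97). Its tallest position had a count of 12 at 0 h and 18 at 4 h. The bins on either side held 10 and 22, and 11 and 12 positions. The next were chr12:12500001-12600000 (11 and 37 positions), chr13:42500001-42600000 (8 and 32), chr5:32500001-32600000 and chr2:92600001-92700000 (12 and 37). The interval of the ratio in lists of equal length lay above 1 for the chromosome 13 bin alone among these 5 (20 positions at 4 h, ratio 2.59, 1.09 to 6.79).

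Higher bins made up 3.20% of those compared, and neighbours with too few positions could not be called. Whether higher bins adjoined more or less often than scattered bins would was not tested. Of the 70 higher bins, 7 had a higher neighbour, in 3 runs. The longest, chr13:42400001-42700000, held 19 positions over 3 bins at 0 h and 67 at 4 h (ratio 2.40, 1.43 to 4.24), with no H3K4me3 or Jmjd3 and 1 Pol II position at 2 h and at 4 h. In its middle bin the 0 h counts ran from 9 to 17 and the 4 h counts from 10 to 28, with positions spread over the whole bin at 4 h. The run chr14:65600001-65800000 held 14 and 49 positions (2.38, 1.30 to 4.68). Its first bin held none of the other marks, and its second held 2 H3K4me3 clusters at 0 h and 1 at 4 h, with Pol II at 29, 38 and 37 positions (0, 2 and 4 h). The run chr16:34200001-34400000 held 14 and 44 positions (2.14, 1.15 to 4.23) and no H3K4me3, Pol II or Jmjd3. The run ratios in lists of equal length were 2.23, 2.07 and 1.33. Over the 1041 pairs of neighbouring compared bins, 56.9% (53.8 to 59.9) lay on the same side of a ratio of 1, and their log2 ratios had a Pearson r of 0.22, which was 0.06 in lists of equal length. These are descriptions across bins.

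The 5 bins higher in both forms of the lists were chr5:66900001-67000000 (8 positions at 0 h, 27 in the full 4 h list and 17 in the shortened one), chr9:47700001-47800000 (6, 28 and 18), chr13:42500001-42600000 (8, 32 and 20), chr14:65600001-65700000 (8, 30 and 21) and chr19:10300001-10400000 (7, 22 and 16). They were singled out after their values were seen. The bins on chromosomes 9, 13 and 14 held no H3K4me3 and no Pol II at 0 or 4 h, and their ratios in lists of equal length were 3.10 (1.18 to 9.55), 2.59 (1.09 to 6.79) and 2.72 (1.16 to 7.09). For the bins on chromosomes 5 and 19, which held 2 and 3 H3K4me3 clusters, the interval included 1. In lists of equal length, 3 of the 10 lower bins had an interval below 1: chr4:138900001-139000000 (17 positions at 0 h and 4 at 4 h, ratio 0.243, 0.0596 to 0.746), chr7:143100001-143200000 (15 and 5) and chr12:112700001-112800000 (27 and 13). The full 4 h list held 21, 20 and 29 positions in these bins, so they came below 2-fold only once low positions were removed.

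By summed overlap count the largest difference was at chr11:69200001-69300000. This bin had 5 positions at 0 h, with counts of 10, 16, 13, 13 and 10, and 15 at 4 h, with a sum of 62 at 0 h and 454 at 4 h. By positions its ratio was 2.04 (0.706 to 7.19). Its ratio of summed shares, 4.57, was the highest of all compared bins. It held exactly 20 positions over both lists, the fewest that a compared bin could have. A group of 6 positions carried 75.3% of the 4 h sum, at 69216276 (count 61), 69217335 (53), 69218392 (50), 69220789 (83), 69222562 (49) and 69223665 (46), over 7.39 kb. The nearest 0 h position was 8.40 kb away. Without these 6 positions the ratio of summed shares was 1.13.

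The other bins with large gains in summed share were chr11:54000001-54100000 (sums of 266 at 0 h and 715 at 4 h, ratio of summed shares 1.68) and chr6:117100001-117200000 (152 and 518, ratio 2.13), beside the bins at chr4:138000001-138100000 and chr13:42500001-42600000 already described.

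The tall group at chr11:69216276-69223665 was alone of its kind on the autosomes. Of the 6200 autosomal 4 h positions with a count of at least 40, no other 3 or more lay within 5 kb of one another with no 0 h position within 5 kb, a search made after this bin had been seen. Between its first and last position the lists gave an H3K4me3 cluster at 4 h, which reached beyond it (69221484 to 69237497, count 177), Pol II as 1 position at 0 h and 3 at 2 h, and neither Pol II at 4 h nor Jmjd3. Pol II positions just outside the group included 69216268 at 0 h (count 9), 69223692 at 2 h (12) and 69224934 at 4 h (23). At 0 h an H3K4me3 cluster began beside it, at 69223797 (count 140). A Jmjd3 position lay in the same bin at 69227334. The ratio of summed shares stayed above 2-fold under the 6 forms of the lists tried (log2 2.01 to 2.69).

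The bin past 2-fold in the other direction was chr11:104300001-104400000. It held 13 positions at 0 h and 7 at 4 h (ratio 0.367, 0.124 to 0.990), with a sum of 230 at 0 h and 96 at 4 h (ratio of summed shares 0.261). A stretch of 9 positions at 0 h, from 104333554 to 104366496 (32.9 kb), had counts of 9 to 37 with a median of 19. At 4 h no position was listed between 104311560 and 104387596, a gap of 76.0 kb, although that list was longer. The other 4 positions at 0 h lay at the end of the bin, where the 4 h list had 6. The first 8 positions of the stretch, over 19.2 kb, lay 22.0 kb or more from any 4 h position and overlapped no feature of the other antibodies. The last position of the stretch, 104366496, lay inside an H3K4me3 cluster in both H3K4me3 lists (count 190 untreated, 205 after stimulation). Pol II positions close to 104366496 had counts of 22 (0 h), 63 (2 h) and 59 (4 h). The next bin held 18 positions at 0 h and 25 at 4 h, and the bin before it held none at either time. At equal length the bin held 13 and 5 positions (ratio 0.398, 0.111 to 1.19), with an interval that included 1. By summed overlap count alone, chr19:7200001-7300000 was also lower, with 443 at 0 h and 336 at 4 h (ratio 0.474) from 19 and 15 positions.

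**Figure D4:**
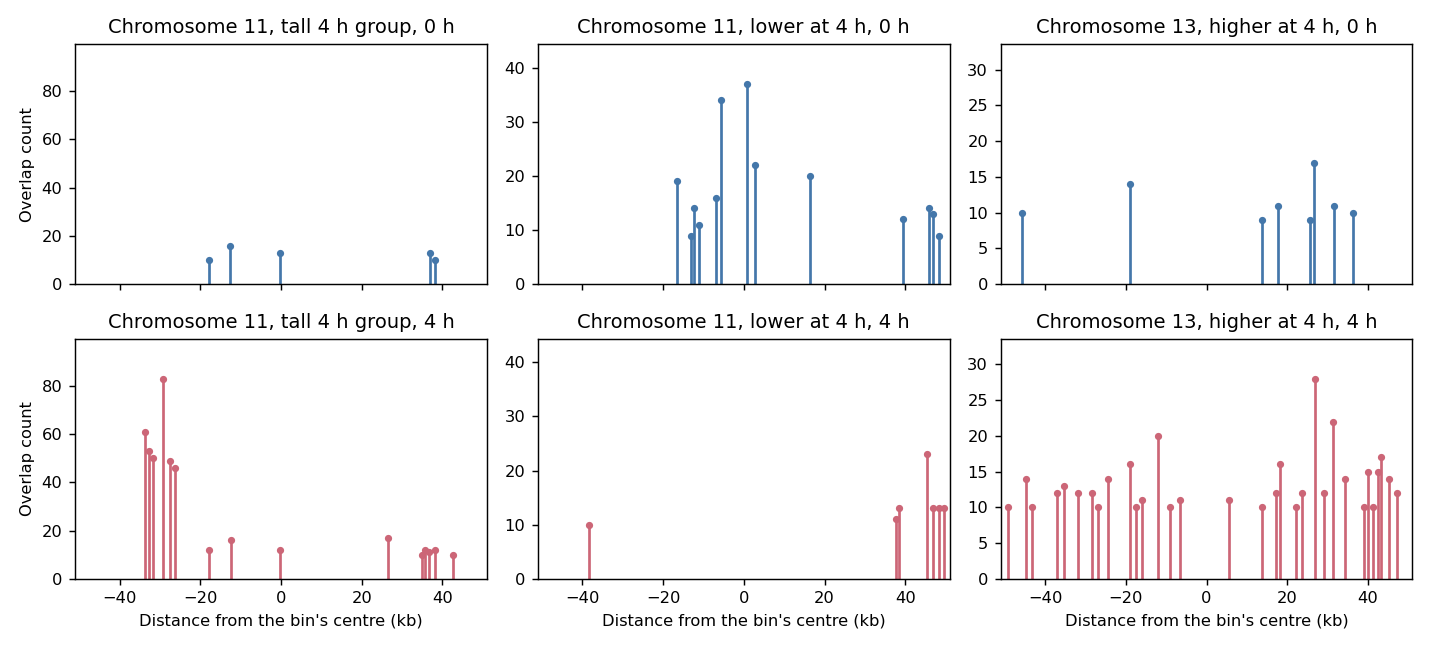
Overlap count of each H3K27me3 position (y axis) against its distance from the bin's centre in kb (x axis), at 0 h (top) and 4 h (bottom), in 3 bins of 100 kb. The left bin has 6 positions of count 46 to 83 at 4 h and no 0 h position near them, the middle bin has 9 positions at 0 h in a stretch that is empty at 4 h, and the right bin has 8 positions at 0 h and 32 at 4 h.

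The bins whose share was lower by the most percentage points were dense bins with nearly equal numbers of positions at both times. They were chr7:144200001-144300000 with 74 positions at each time, chr11:61100001-61200000 with 75 and 76, chr15:102800001-102900000 with 78 and 82, chr11:3000001-3100000 with 66 and 65, and chr2:164600001-164700000 with 64 at each time. Their ratios lay between 0.671 and 0.716, and in lists of equal length between 0.972 and 1.03. By summed overlap count the list also named chr6:52100001-52200000 (51 and 52 positions, with 12 H3K4me3 clusters at 0 h and 13 at 4 h), chr1:75300001-75400000 (63 and 70) and chr9:3000001-3100000 (30 and 29).

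The chr11:3000001-3100000 bin stood apart in the other libraries. It held 72 of the 4339 autosomal Jmjd3 positions, 72 Pol II positions at 0 h, 75 at 2 h and 70 at 4 h, and 8 and 5 H3K4me3 clusters, while the bins on both sides held no H3K27me3. The chr9:3000001-3100000 bin held 28 Pol II positions at 0 h, 29 at 2 h and 30 at 4 h and no H3K4me3 or Jmjd3, with a tallest H3K27me3 count of 132 at 0 h and 157 at 4 h. Whether the features listed in these bins reflected binding or read mapping was not tested, and the headers name no control. On the autosomes 111 positions at 0 h and 114 at 4 h had a feature of all 7 other libraries within 250 bp. Without them, the numbers of higher and lower bins were the same by both measures, at 70 and 1 by positions. Neither the chr11:3000001-3100000 nor the chr9:3000001-3100000 bin was called past 2-fold, so these numbers do not check them. The log2 ratio of positions at chr11:3000001-3100000 was -0.58 before the removal and -0.63 after it.

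Whole chromosomes differed little. The ratio of shares was above 1 for 10 autosomes and below 1 for 9. It was highest for chromosome 14, with 2095 positions at 0 h and 3401 at 4 h (ratio 1.11, 1.05 to 1.17), followed by chromosome 9 with 3869 and 6011 (1.06, 1.02 to 1.10). It was lowest for chromosome 10, with 1660 and 2302 (0.945, 0.887 to 1.01), and chromosome 11, with 5787 and 8097 (0.953, 0.922 to 0.986). Only the intervals of chromosomes 9, 11 and 14 excluded 1. In lists of equal length no autosome's interval excluded 1, and 9 of the 19 lay on the same side of 1 as in the full lists.

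**Figure D5:**
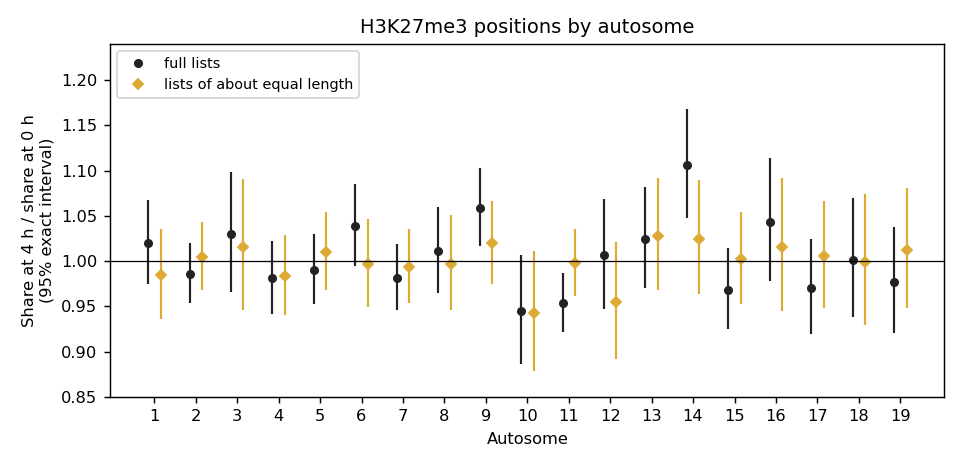
Ratio of the share of H3K27me3 positions at 4 h to that at 0 h (y axis, exact 95% intervals as lines) for each autosome (x axis), in the full lists and in lists of equal length. Chromosome 14 has the highest ratio, 1.11, in the full lists, and every interval includes 1 in lists of equal length.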

How the data were processed

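H3K27me3 was mapped in 1 library at 0 h and 1 at 4 h, from 100000000 cells each, with fragments of about 200 to 300 bp, per the labels. The deposited files are lists of positions (clusters for H3K4me3) with 1 measured value, the overlap count, in whole numbers. This signal was deposited as it was counted: the headers name no scaling to depth and no control. The submitters' processing notes name mm8 as the build. The aligner, peak caller and threshold are not stated there or in the labels.

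Groups came from the sample titles. Autosomal positions and their overlap counts were summed in bins of 100 kb, as shares of their list. Bins with at least 20 positions over both lists were compared, and a 2-fold ratio was the call. H3K4me3 clusters were counted in every bin they touched. For density classes, occupied bins were ordered by the mean of both shares and cut into 10 equal groups. For lists of equal length, the 4 h list was cut at the count that left the number nearest to the 0 h list, ties kept whole. Named bins followed a rule: the 5 with the highest mean share, the 5 largest ratios and the 5 largest differences in points each way, and runs. The members, bins and rules were chosen with earlier results of these data known. Alternatives were lists from the same lowest count or above their medians, other bins, minimums and folds, limited overlap counts and removal of positions near features of every library; centring within density classes, equal length above the 0 h median and classes kept from the full lists were added after seeing the data.

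Genes are not named at bins, because no mm8 annotation was used here. Bin counting was tested on simulated lists. Tables were computed in Python 3.11.15 with pandas 2.3.3 and numpy 2.4.6, intervals with scipy 1.17.1 and figures with matplotlib 3.10.9.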

Additional observations from a re-analysis of the deposited data

Results flagged for a closer look

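Chromosome X was outside the autosomal comparison, and its share of the H3K27me3 list was above that of untreated cells. It held 2527 of the 59684 positions at 0 h (4.23%, 4.07 to 4.40) and 5214 of the 89093 at 4 h (5.85%, 5.70 to 6.01), a ratio of 1.38 (1.32 to 1.45), above the highest autosomal ratio, 1.11. Counts of 9 to 11 made up 65.2% of its 0 h positions and 53.5% of its 4 h positions, against 48.9% and 34.2% on the autosomes. With the 4 h list limited to counts of 12 or more, X held 2422 positions (4.20%), a ratio of 0.992 (0.938 to 1.05).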

How the results depend on the processing

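No paired analysis was possible because each time had 1 library. The numbers of bins past 2-fold depended on the lists, the minimum and the fold. For 70 higher and 1 lower bin by positions, and 63 and 2 by summed overlap count, the alternatives gave the following. Lists of equal length gave 8 and 10 by positions and 7 and 8 by sums. The same lowest count gave 125 and 19 by positions and 130 higher by sums. Positions above each median gave 30 higher by positions and 28 and 0 by sums, and equal length above the 0 h median gave 0 higher by positions and 0 and 0 by sums, where 623 bins were compared. Bins of 50 kb gave 43 and 4 by positions and 1 lower by sums, bins of 200 kb 1 lower by sums, and shifted bins 5 lower by positions and 0 by sums. A minimum of 10 positions gave 257 and 36 by positions and 226 and 11 by sums, a minimum of 40 gave 5 and 0, and 8 and 0, and a fold of 1.5 gave 230 and 87, and 222 and 23. Centring within density classes gave 5 lower by positions. Lists of equal length hold fewer positions by construction.

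The difference for the densest class (-4.21 points) was 1.87 in lists of equal length, 0.97 above the 0 h median at equal length and 1.67 with classes kept from the full lists. It was -7.53 at the same lowest count, -2.64 above each median, -5.25 in bins of 50 kb and -3.25 in bins of 200 kb. The sparser 5 classes (0.37) gave -2.35, -0.96 and -1.54 in the first 3 of these, 1.86 at the same lowest count, 1.37 above each median and 1.32 in bins of 50 kb. Bins without H3K4me3 (3.12) gave -1.17 at equal length, -0.45 at equal length above the 0 h median, 5.43 at the same lowest count, 4.59 in bins of 50 kb and 1.43 in bins of 200 kb. Bins without Pol II (2.43) gave 0.14, 0.71, 3.41, 1.89 above each median and 1.60 in bins of 200 kb.

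Higher bins with a higher neighbour (7) numbered 0 in both forms of equal length and at a minimum of 40, 17 at the same lowest count, 3 above each median, 4 in bins of 50 kb, of 200 kb and shifted, 35 at a minimum of 10 and 44 at a fold of 1.5. Neighbours on the same side of 1 (56.9%) were 60.8% in bins of 50 kb and 62.6% at a minimum of 40. Autosomes with a higher share numbered 10, 10 at equal length and 9 at the same lowest count. Of the named bins called past 2-fold by positions, log2 ratios of positions changed sign at chr13:42600001-42700000 and chr16:34300001-34400000 (both -1.03 at equal length above the 0 h median) and chr14:65700001-65800000 (-0.65 above each median). Log2 ratios of sums changed sign at these 3 bins under the same settings (-1.17, -1.03 and -0.50) and at chr15:85600001-85700000 (-0.15 above each median and -0.04 at equal length above the 0 h median). Several dense bins that were not called, with ratios below 1 in the full lists, were above 1 at equal length. The cause was not tested. Depth per library was unknown, so a difference in low positions cannot be told apart from one in depth.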

Other observations

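Positions that stood in groups in one list and were missing from the other were counted after the chromosome 11 bins had been seen. Groups of at least 5 neighbouring positions, each within 10 kb of the next and over 5 kb from any position of the other list, numbered 2 in the 0 h list and 209 in the 4 h list, which was the longer. The 0 h groups were the stretch at chr11:104333554-104352739, with counts up to 37, and 5 positions at chr4:140670105-140693670, each with a count of 9. Of the 209 groups at 4 h, 12 reached a count of 20, and only the group at chr11:69216276-69223665 reached 30. The fullest 4 h group, 12 positions at chr11:88927004-88947981, had counts of 10 to 22 with a median of 11.5, and 11 positions each lay at chr15:74442244-74462793 and chr6:113908738-113936358, with counts of 10 to 14. No feature of the other 3 antibodies was listed within these last 3 groups.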
